A study of Mus musculus with 2 samples.

Results

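The 39 genes of the 4 mouse Hox clusters and the 7 genes of their MEIS and PBX cofactor families were followed in differentiating erythroid cells. Members were all annotated protein-coding genes named Hoxa, Hoxb, Hoxc or Hoxd with a number, or Meis or Pbx with a number. This gave 46 of the 21474 protein-coding genes measured, namely 11 Hoxa, 10 Hoxb, 9 Hoxc, 9 Hoxd, 3 Meis and 4 Pbx genes. The cells were G1E-ER4, an immortalized male mouse line. Its parent erythroid line lacks Gata1, and Gata1 activity is given back by a fusion of Gata1 to the ligand-binding domain of the oestrogen receptor, which estradiol switches on. The only group held 2 polyA-selected, paired-end RNA-seq libraries of cells kept for 7 hours in 10 nM 17beta-estradiol. No untreated cells were analysed here, so every value is a level and none is a response to estradiol. The line is a single one, and both libraries cite the same biological sample record, so their spread may be technical.

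Hox genes encode transcription factors that bind DNA through a homeodomain, and in the embryo their order along each cluster matches their order of expression along the body axis. PBX and MEIS proteins carry a homeodomain with extra residues in a loop, which gives the wider TALE family its name (from the added amino acids in that loop). They bind DNA together with HOX proteins and sharpen the choice of site. In blood, Hoxa and Hoxb genes with Meis1 are best known in stem and progenitor cells and in leukaemia, and their transcripts generally decline as cells mature.

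The homeobox is the stretch of each gene that encodes the homeodomain. It was taken as 180 bases in the 39 Hox genes and 189 bases in the 7 Meis and Pbx genes, lengths set in advance. The homeoboxes of 4 of the 5 Hox genes detected here, and of the most abundant Pbx and Meis gene, are shown because they are what the detected transcripts would have to carry to encode a DNA-binding protein. Each was read 5′ to 3′ from the GENCODE M21 transcript on GRCm38. Capitals mark the 18 bases that begin at the TGG codon of the recognition helix, the part that enters the major groove of DNA.
Hoxb13: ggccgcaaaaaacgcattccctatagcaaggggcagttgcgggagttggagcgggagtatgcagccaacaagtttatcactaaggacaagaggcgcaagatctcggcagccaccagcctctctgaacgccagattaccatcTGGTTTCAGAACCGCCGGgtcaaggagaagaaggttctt
Hoxc4: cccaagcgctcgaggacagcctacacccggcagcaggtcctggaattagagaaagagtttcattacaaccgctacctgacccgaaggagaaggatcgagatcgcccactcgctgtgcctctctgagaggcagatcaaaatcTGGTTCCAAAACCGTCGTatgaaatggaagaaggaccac
Hoxc6: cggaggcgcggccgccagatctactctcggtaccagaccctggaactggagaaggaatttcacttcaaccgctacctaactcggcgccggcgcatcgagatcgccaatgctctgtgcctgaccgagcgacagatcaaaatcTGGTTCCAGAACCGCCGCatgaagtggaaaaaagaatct
Hoxc9: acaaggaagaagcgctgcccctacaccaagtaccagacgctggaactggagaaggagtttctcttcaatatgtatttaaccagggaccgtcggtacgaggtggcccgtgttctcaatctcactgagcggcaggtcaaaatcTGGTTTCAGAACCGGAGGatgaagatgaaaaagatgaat
Pbx2: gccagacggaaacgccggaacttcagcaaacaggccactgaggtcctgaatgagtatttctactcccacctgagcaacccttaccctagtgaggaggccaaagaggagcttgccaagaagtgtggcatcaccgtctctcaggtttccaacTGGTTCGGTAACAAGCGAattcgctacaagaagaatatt
Meis1: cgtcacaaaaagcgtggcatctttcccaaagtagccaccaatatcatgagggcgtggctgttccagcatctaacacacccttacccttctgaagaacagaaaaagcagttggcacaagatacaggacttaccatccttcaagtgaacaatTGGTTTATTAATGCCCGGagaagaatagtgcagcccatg

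Among the 4 Hox homeoboxes shown, those of Hoxc4 and Hoxc6 were the most similar, with 70.6% of 180 bases identical. Those of Hoxb13 and Hoxc6 were the least similar, with 51.7% identical. The closest relative of the Hoxb13 homeobox among all other Hox genes was that of Hoxc13, at 73.9%. Hoxc4 was closest to Hoxb4 at 82.2%, Hoxc6 to Hoxa6 at 84.4%, and Hoxc9 to Hoxb9 at 83.9%. Over whole transcripts rather than the homeobox alone, the longest run of identical bases that any of these 4 genes shared with another Hox gene was 50 bases. It lay between Hoxc9 and Hoxb9. The expected counts, the authors' estimates of fragments per gene, were whole numbers in both libraries for 45 of the 46 members. The exception was Pbx2, whose count in library 1 was 8915.25. Of the 45, 20 had 0 counts in both libraries. Among the 9 members at 1 TPM or more in both libraries 8 had whole counts, against 90.1% of such protein-coding genes.

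The libraries held 59610969 and 44689405 expected counts in libraries 1 and 2, which carry the replicate numbers of the labels. Levels are given as TPM, which is scaled by transcript length, so that genes can be compared within a library. All 8 erythroid markers were detected, with summed TPM of 22894 and 15560. Of 28 markers of other cell types (megakaryocyte, mast cell, myeloid, lymphoid, stem and progenitor, endothelial, stromal and pluripotent), 1 was detected, the megakaryocyte and progenitor gene Itga2b, and their summed TPM was 6.83 and 6.89. Itga2b made up 5.12 and 4.21 of this. The 4 myeloid markers summed to 0.03 and 0.67 TPM, with Mpo at 0 and 24 counts and Elane at 1 and 10. Csf1r had 1 and 2 counts and Ly6g none. The stem and progenitor markers Cd34, Flt3, Ly6a and Mecom together reached 0 and 0.01 TPM. Gata1 was read at 1251 and 872 TPM, a value that includes the fusion.

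The cells transcribed Hoxb13 and the low-numbered end of the Hoxc cluster, together with Pbx2, Pbx3, Pbx4 and Meis1, and little else of the set. Detection here means 1 TPM or more in each of the 2 libraries. By this rule 9 of 46 members (19.6%) were detected, against 38.3% of all protein-coding genes. They comprised 5 of 39 Hox genes (Hoxc4, Hoxc5, Hoxc6, Hoxc9 and Hoxb13), 3 Pbx genes and 1 of 3 Meis genes. No count at all was recorded in either library for 20 members (43.5%), 19 of them Hox genes and the last Meis2. The same held for 39.5% of protein-coding genes. In bulk RNA, expression in fewer cells and less RNA per cell cannot be told apart.

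**Figure D1:**
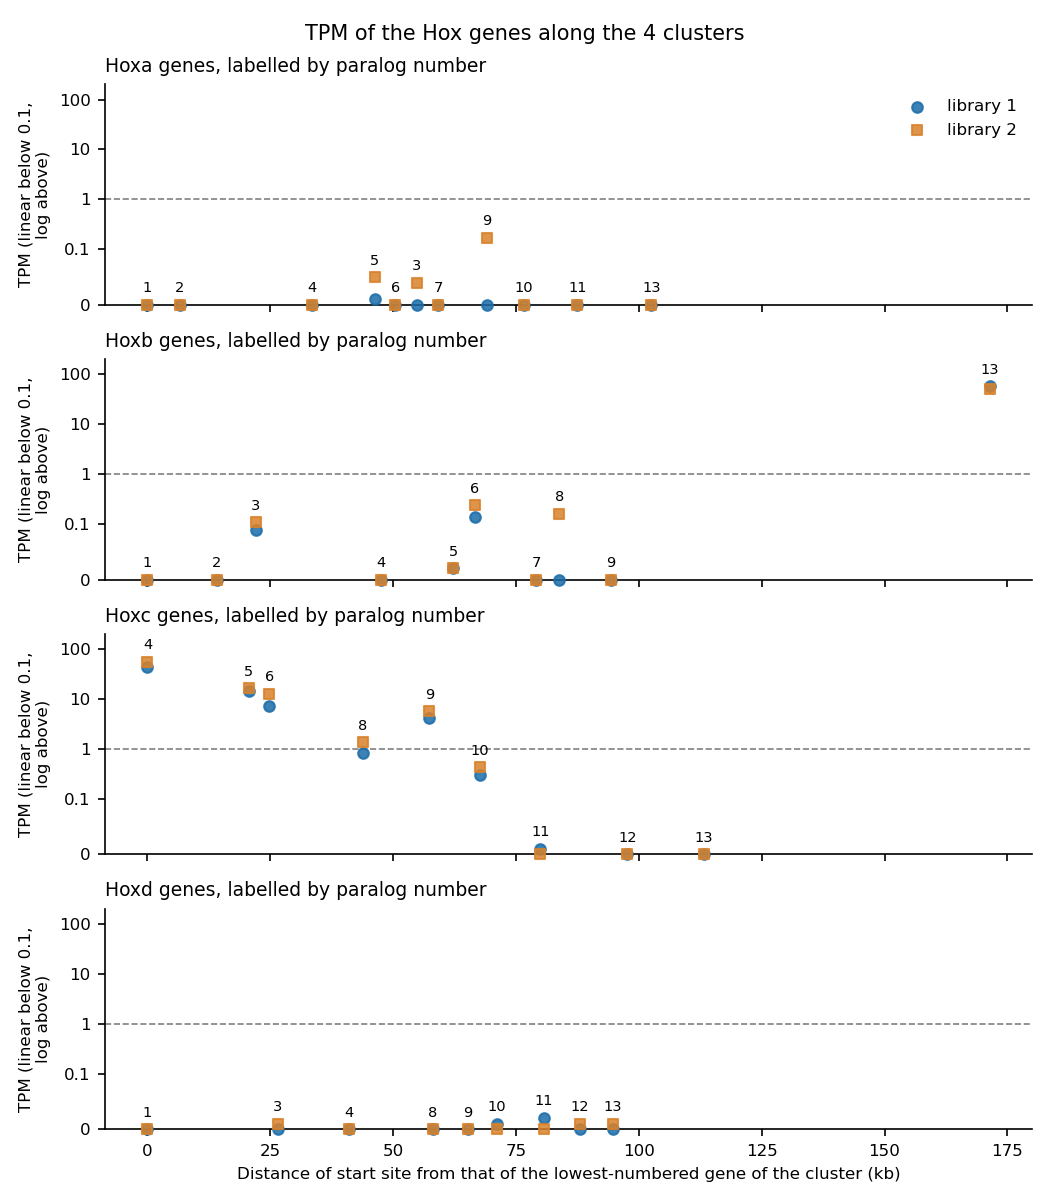
TPM of each Hox gene (vertical axis, linear below 0.1 and logarithmic above) against the distance of its start site from that of the lowest-numbered gene of its cluster (horizontal axis, kb). Circles are library 1 and squares library 2, numbers are paralog numbers, and the dashed line is 1 TPM. All 11 Hoxa and all 9 Hoxd genes lie under the line, Hoxb13 stands alone at 57.09 and 50.77, and the Hoxc genes fall from Hoxc4 at 43.56 and 55.65 to 0 for Hoxc12 and Hoxc13.

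The Hoxc cluster (chromosome 15, plus strand) held the largest share of Hox transcripts. Its 9 genes summed to 70.8 TPM in library 1 and 92.3 in library 2, or 59.7% ± 6.29 (SD, n = 2) of all Hox TPM. The Hoxb cluster held 40.2% ± 6.41 (SD, n = 2), and Hoxb13 alone 39.9% ± 6.54 (SD, n = 2). The Hoxa and Hoxd clusters held 0.0942% ± 0.122 and 0.0221% ± 0.00180 (SD, n = 2). In library 1 the Hoxc and Hoxb shares were 55.2% and 44.7%, and in library 2 they were 64.1% and 35.7%. The Hoxc cluster was thus ahead in both libraries, by a margin that differed between them.

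Hoxc4 (chr15:103018934-103036852, GRCm38), a paralog-group 4 gene studied in lymphocytes, was the most abundant Hoxc gene, at 43.56 TPM in library 1 and 55.65 in library 2. These rested on 4109 and 3787 counts. It stood higher than 87.2% and 89.5% of protein-coding genes. Hoxc5 (chr15:102967443-103017429), its neighbour, read 14.67 and 16.51 TPM from 2057 and 1621 counts. Hoxc4 exceeded Hoxc5 by 2.97-fold in library 1 and 3.37-fold in library 2. The annotated span of Hoxc5 runs across Hoxc6, Hoxc8 and Hoxc9 and overlaps Hoxc10 because of a noncoding transcript, Hoxc5-202, that had 0 counts in both libraries.

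Hoxc6 (chr15:102998257-103011881), which acts in patterning of the thoracic skeleton, read 7.23 and 12.68 TPM from 433 and 519 counts. Library 2 was higher by 1.75-fold in TPM, the widest gap of any detected member. Hoxc9 (chr15:102976439-102985099), which sets thoracic motor neuron identity, read 4.23 and 5.67 TPM from 470 and 447 counts. Hoxc8 (chr15:102990607-102994111), between them on the chromosome, read 0.83 and 1.36 TPM from 72 and 83 counts, and so passed the threshold in library 2 only. Hoxc9 exceeded Hoxc8 by 5.10-fold and 4.17-fold, so the level did not fall evenly along the cluster.

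Hoxc10 (chr15:102966796-102971893), a lumbar-level gene, was the next under the threshold, at 0.30 and 0.43 TPM from 27 counts in each library. Hoxc11 had 1 and 0 counts, and Hoxc12 and Hoxc13 had none. The order of the levels from Hoxc4 to Hoxc11 was the same in both libraries apart from Hoxc11, which tied with the genes at 0 in library 2. Across the 9 Hoxc genes, the Spearman correlation of TPM with distance from Hoxc4 was -0.98 in library 1 and -0.97 in library 2. This is a description across genes of 1 cluster, which share their chromosome domain and their libraries.

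Hoxb13 (chr11:96194316-96197447, plus strand), which acts in the tail bud and the prostate, was the only detected gene of its cluster. It read 57.09 TPM in library 1 and 50.77 in library 2, from 5931 and 3699 counts. The authors' intervals for its TPM were 54.8 to 57.6 and 48.1 to 51.3, which do not overlap. Hoxb13 and Hoxc4 could not be ranked: Hoxb13 was 1.31-fold above Hoxc4 in library 1 and 0.912-fold of it in library 2. Hoxb13 lies apart from the other Hoxb genes, with 74.0 kb between its end and Hoxb9.

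The 9 other Hoxb genes together had 18 and 22 counts, against 5931 and 3699 for Hoxb13. Hoxb6 read 0.14 and 0.24 TPM from 8 and 10 counts, and Hoxb3 read 0.09 and 0.11 from 8 counts in each library. Hoxb8 had 0 and 3 counts, which made 0 and 0.16 TPM, and Hoxb5 had 2 and 1. Hoxb1, Hoxb2, Hoxb4, Hoxb7 and Hoxb9 had 0 counts in both libraries. Hoxb4, used to expand blood stem cells in culture, was thus without a counted fragment while its paralog Hoxc4 had 4109 and 3787.

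A cluster was called silent where none of its Hox genes reached 1 TPM in either library, and by this rule the Hoxa and Hoxd clusters were silent. All 11 Hoxa genes together had 1 count in library 1 (exact Poisson 95% interval 0.0253 to 5.57) and 10 in library 2 (4.80 to 18.4). These counts belonged to Hoxa5 (1 and 3), Hoxa3 (0 and 2) and Hoxa9 (0 and 5). Hoxa9, a driver of leukaemia with Meis1, was the highest of them, at 0 and 0.17 TPM. The other 8 Hoxa genes had 0 counts in both libraries. A count of 3, the limit that a count of 0 allows, was worth 0.0291 to 0.0824 TPM in library 1 and 0.0414 to 0.116 TPM in library 2, depending on the Hoxa gene. Intervals and limits cover counting error only. The 4 myeloid markers were also higher in library 2 (summed TPM 0.03 and 0.67), and a link to the Hoxa counts was not tested.

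The 9 Hoxd genes together had 2 counts in library 1 (exact Poisson 95% interval 0.242 to 7.22) and 3 in library 2 (0.619 to 8.77). Hoxd10 and Hoxd11 had the single counts of library 1, and Hoxd3, Hoxd12 and Hoxd13 those of library 2. No Hoxd gene was counted in both libraries. Hoxd1, Hoxd4, Hoxd8 and Hoxd9 had none, and no Hoxd gene was above 0.02 TPM.

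By paralog group, at most 1 gene was detected in any of the 13 groups. The Hoxc cluster has no more than 1 gene in any group, so its 4 detected genes could not share a group. Group 4 was held by Hoxc4, group 5 by Hoxc5, group 6 by Hoxc6, group 9 by Hoxc9 and group 13 by Hoxb13. In groups 1, 2 and 7 no gene had a count in either library. Group 13 summed to 57.09 and 50.78 TPM and group 4 to 43.56 and 55.65.

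All 4 clusters, silent or not, had a detected gene among the 2 nearest protein-coding genes on at least 1 side. The signalling adaptor Skap2, on the low-numbered side of the Hoxa cluster, read 5.22 and 4.96 TPM, and Hibadh, beyond the other end, 21.06 and 20.56. The homeobox gene Evx1, which borders Hoxa13, had 0 and 1 counts, and Snx10, beyond Skap2, had 0. At the Hoxd cluster, Evx2 had 0 counts, Lnpk read 13.73 and 6.06 TPM, and Mtx2, a mitochondrial import gene, read 107.86 and 149.18. At the Hoxb cluster the genes nearest to Hoxb13, Ttll6 and Calcoco2, had 0 counts and 1 and 0 counts, so Hoxb13 had no detected neighbour among them. At the other end Skap1 also had 0, and Snx11 beyond it read 12.56 and 10.25 TPM. At the Hoxc cluster, Smug1 and Cbx5 beside Hoxc4 read 3.04 and 3.25 TPM and 3.82 and 4.10 TPM, below Hoxc4 in both libraries. Beyond Hoxc13, Calcoco1 read 12.80 and 14.16 TPM, and Atp5g2 read 185.62 and 51.88, above Hoxc4 in library 1 and below it in library 2.

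The 19 long noncoding and antisense genes annotated inside the clusters together had 8 and 7 counts, and none exceeded 0.07 TPM. Hotair, a long noncoding RNA of the Hoxc cluster known to act in trans, had 1 count in each library. Hotairm1 and Haglr had none. The miRNA genes of the clusters were also at 0 counts, but their hairpins are shorter than the fragments kept in library preparation, so this says nothing of the mature miRNAs.

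**Figure D2:**
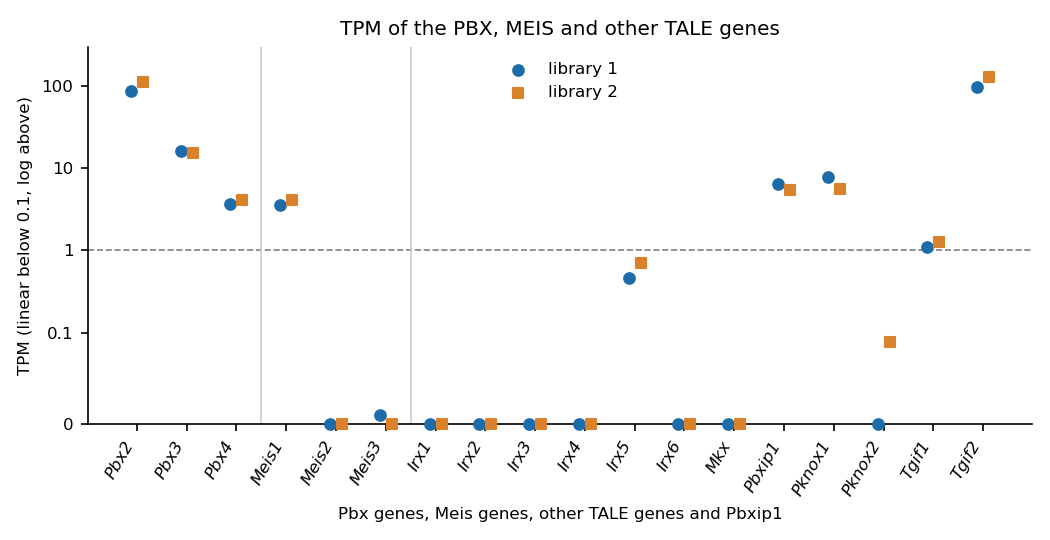
TPM (vertical axis, linear below 0.1 and logarithmic above) of 3 Pbx genes, the 3 Meis genes, 11 other TALE genes and Pbxip1. Circles are library 1, squares library 2, and the dashed line is 1 TPM. Pbx2 and Tgif2 stand highest, near 100 TPM, and Meis1 is the only Meis gene above the line.

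Among the cofactors, Pbx2 (chr17:34591266-34597400, plus strand), the most broadly expressed PBX gene, was the most abundant member of the whole set. It read 88.15 TPM in library 1 and 111.99 in library 2, from 8915.25 and 6340 counts. It held 83.4% ± 2.54 (SD, n = 2) of the summed Pbx TPM. Its level was 2.02-fold that of Hoxc4 in library 1 and 2.01-fold in library 2. Pbx3 (chr2:34171457-34373142, minus strand), a partner of Hoxa9 in leukaemia, read 16.14 and 15.27 TPM from 827 and 681 counts. Pbx4 (chr8:69832491-69872292, plus strand), best known from the testis, read 3.65 and 4.16 TPM from 120 and 118 counts.

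Meis1 (chr11:18879817-19018985, minus strand), needed for blood stem cells and megakaryocytes, read 3.53 and 4.12 TPM from 517 and 390 counts. Meis3 had 1 and 0 counts, and Meis2 had none. The posterior mean TPM, an alternative estimate of the authors that adds a prior to every transcript, read 0.75 and 1.03 for Meis2. Pbx2 exceeded Meis1 by 25.0-fold in library 1 and 27.2-fold in library 2. The summed Meis TPM was 0.0328-fold and 0.0313-fold the summed Pbx TPM, and the summed Pbx TPM was 0.842-fold and 0.913-fold the summed Hox TPM.

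Ordered by mean TPM, the members ran from Pbx2 at 100.07 ± 16.9 (SD, n = 2) through Hoxb13 at 53.9 ± 4.47 and Hoxc4 at 49.6 ± 8.55 to Pbx3 at 15.7 ± 0.615 and Hoxc5 at 15.6 ± 1.30. Hoxc6 at 9.96 ± 3.85, Hoxc9 at 4.95 ± 1.02, Pbx4 at 3.91 ± 0.361 and Meis1 at 3.83 ± 0.417 followed, and Hoxc8 at 1.10 ± 0.375 came last. Neighbours in this order changed places between the libraries in 2 cases, Hoxb13 with Hoxc4 and Pbx3 with Hoxc5. Pbx4 was above Meis1 in both, by 1.03-fold and 1.01-fold, less than the width of the authors' interval for either gene (3.24 to 5.01 TPM for Pbx4 and 3.24 to 4.01 for Meis1 in library 1).

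Of the 12 other TALE genes and PBX partners, 4 were detected (33.3%), against 38.3% of all protein-coding genes. Tgif2, a TALE repressor, read 96.92 and 127.93 TPM, close to Pbx2. Pknox1 (also called Prep1), which competes with MEIS proteins for PBX, read 7.80 and 5.62 TPM. Pknox1 was thus above Meis1 in both libraries. Pbxip1, which encodes a protein that binds PBX proteins and blocks their contact with DNA, read 6.39 and 5.40 TPM, and Tgif1 1.09 and 1.27. Irx5 read 0.46 and 0.70 TPM, and the other 5 Irx genes and Mkx had 0 counts.

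**Figure D3:**
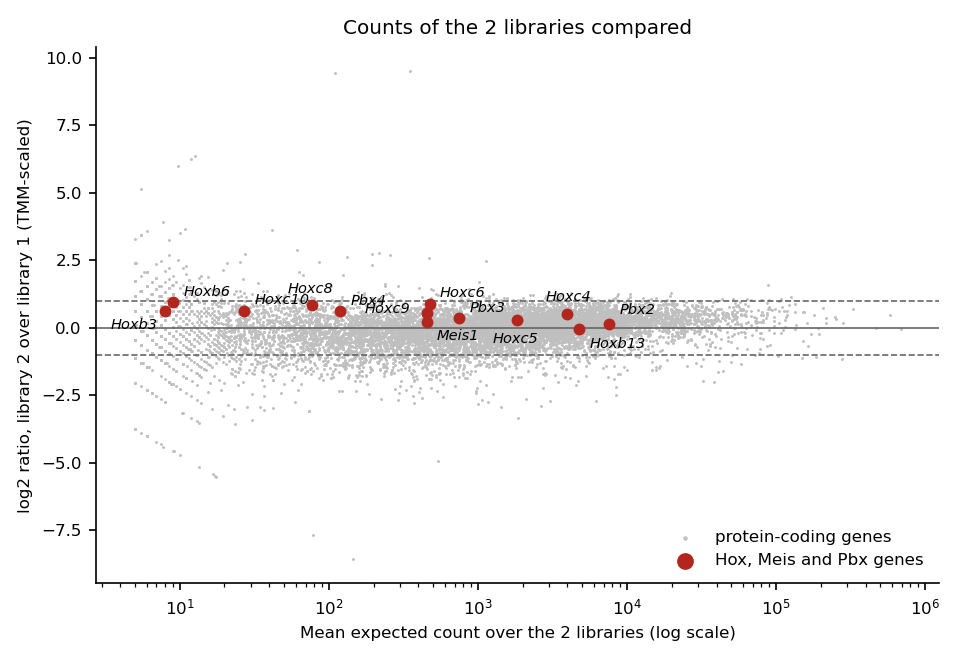
Log2 ratio of library 2 over library 1 after TMM scaling (vertical axis) against the mean expected count (horizontal axis, log scale) for protein-coding genes with at least 10 counts over both libraries. Grey points are all such genes, red points the 13 Hox, Meis and Pbx genes among them, and dashed lines mark a 2-fold difference. All 13 red points lie between the dashed lines, and with this scaling Hoxb13 is the only one below 0 (with total counts Pbx2 is below 0 too).

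Of the members counted well enough to test, none differed 2-fold or more between the libraries. An exact two-sided binomial test compared the counts of each gene between the libraries, which are not conditions, with the ratio expected from library sizes scaled by TMM (a scaling that sets the typical gene to no difference). A gene was called at a Benjamini-Hochberg adjusted p under 0.05 over all 11212 genes tested and a fold of at least 2. Of 13 members with at least 10 counts over both libraries, 0 were called, against 11.1% of all genes tested. Without the fold minimum 9 of the 13 (69.2%) passed, against 68.2% of all genes tested. Those higher in library 2 were also 9 of the 13, against 33.5% of all genes tested, and comprised Hoxc4, Hoxc5, Hoxc6, Hoxc8, Hoxc9, Meis1, Pbx2, Pbx3 and Pbx4. These directions depend on the scaling. With total counts only Hoxc4, Hoxc6, Hoxc8 and Hoxc9 passed as higher in library 2, whereas Pbx2 (log2 ratio -0.08) and Hoxb13 (-0.27) passed as lower. By TPM Pbx3 was also lower in library 2.

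The widest difference among members with at least 50 counts in each library was that of Hoxc6, at a log2 ratio of 0.89 (adjusted p = 1.12e-20, exact binomial test). Hoxc8 followed at 0.83 (adjusted p = 6.98e-04 in the same exact test) and Pbx4 at 0.60 (adjusted p = 0.00247, same exact test). Hoxc4 stood at 0.51 and Hoxc9 at 0.55. Hoxb13 was the exception, at -0.05 (adjusted p = 0.0972, exact binomial test). The test takes counting as the only error, and 7641 of 11212 genes passed it without the fold minimum, so counting error is smaller than the spread between these libraries.

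By the transcript estimates, a gene's level and the level of its homeobox-coding transcripts differed for several members. Some of these estimates changed widely between the libraries. Pbx3-204 held 35.2% of its gene's TPM in library 1 and 0 in library 2, and Pbx4-204 20.8% and 0. Hoxb13 had only 1 annotated transcript, which holds the complete homeobox, so its share of 100% was fixed by the annotation. Of the transcript TPM of Hoxc5, 100% in both libraries lay in transcripts whose annotated coding sequence holds the complete homeobox. For Hoxc9 it was 98.6% and 100%, and for Hoxc8 97.6% and 99.3%. For Hoxc6 it was 71.6% and 66.8%, the rest lying in the noncoding transcripts Hoxc6-202 and Hoxc6-203.

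Hoxc4 was divided between a pair of protein-coding transcripts. Hoxc4-201 held 75.1% of the gene's TPM in library 1 and 37.0% in library 2, and Hoxc4-202 held 24.9% and 63.0%. The leading transcript therefore changed between the libraries, and the mean share of Hoxc4-201 was 56.1% ± 26.9 (SD, n = 2). Hoxc4-202 starts 15.5 kb upstream of Hoxc4-201 and includes an extra exon of 49 bases (chr15:103035267-103035315) before the exon with the homeobox. Its annotated coding sequence of 453 bases ends inside that exon, whereas that of Hoxc4-201, 792 bases long, reads on through the homeobox. The junctions are shown because this is where the transcripts part. Lower case marks the last 30 bases of the shared exon, which ends at position 103035161, and capitals the first 17 bases of the next exon. The last 3 capitals of Hoxc4-202 are its TAG stop codon.
Hoxc4-201: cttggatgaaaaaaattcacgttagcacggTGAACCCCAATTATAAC
Hoxc4-202: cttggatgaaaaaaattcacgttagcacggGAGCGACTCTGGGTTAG

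**Figure D4:**
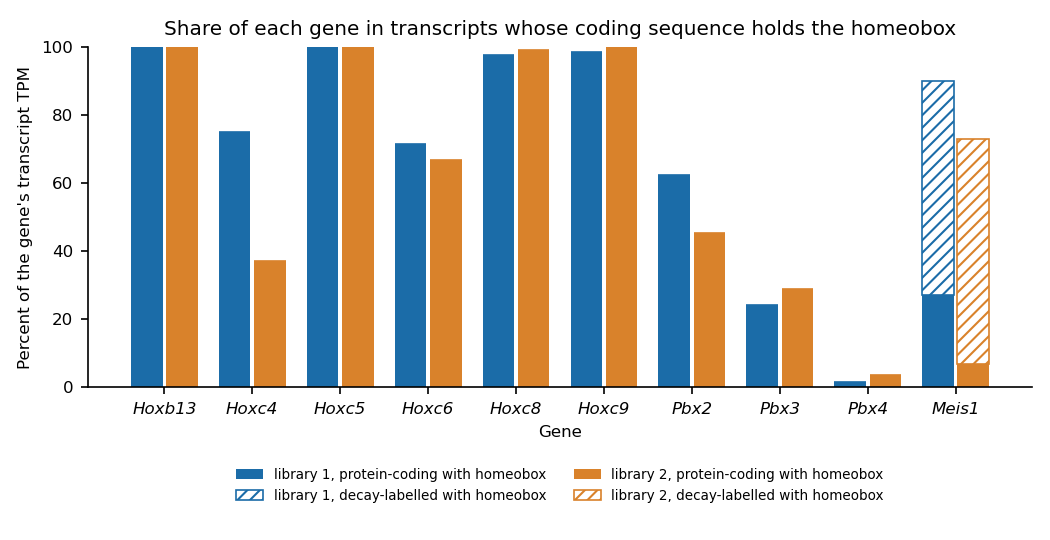
Share of each gene's summed transcript TPM (vertical axis, percent) in transcripts whose annotated coding sequence holds the complete homeobox, for the members at 1 TPM or more in either library. Blue bars are library 1 and orange bars library 2, filled for protein-coding transcripts and hatched for transcripts annotated as targets of nonsense-mediated decay. Hoxb13, which has only 1 annotated transcript, and Hoxc5 reach 100% in both libraries. Hoxc4 stands at 75.1% in library 1 and 37.0% in library 2, and Pbx4 stays under 5%.

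The Pbx genes were divided among more transcripts. For Pbx2 the share with the homeobox was 62.5% and 45.4%, nearly all of it in Pbx2-201. The short transcript Pbx2-204, annotated as protein-coding but without the homeobox, held 16.7% and 45.4%. Its annotated coding sequence of 443 bases is not a whole number of codons, so this transcript model may be incomplete. For Pbx3 the share was 24.2% and 28.9%. By TPM its leading transcript was Pbx3-206, annotated as a target of nonsense-mediated decay, at 38.7% and 66.7%. By expected counts the protein-coding homeobox transcript Pbx3-201 led in both libraries, at 46.6% and 53.7%, against 30.4% and 42.5% for Pbx3-206. For Pbx4 only 1.64% and 3.61% lay in homeobox transcripts, and the decay target Pbx4-205 held 52.3% and 93.8%.

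Meis1 had 90.1% and 73.1% of its TPM in transcripts with the homeobox. Most of this was Meis1-202, at 62.9% and 66.3%, which is annotated as a decay target although its coding sequence holds the homeobox. Protein-coding Meis1 transcripts with the homeobox held 27.2% and 6.78%. Shares by TPM weigh short transcripts heavily: by expected counts the homeobox share of Pbx2 was 90.7% and 82.9%, and that of Pbx3 58.8% and 56.1%. Both estimates for Pbx4 were low, with 3.79% and 6.26% by expected counts, and rested on only 4.55 and 7.39 counts of Pbx4-201.

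Most genes of the factors known to switch Hox genes on or off were detected. Of 21 activators, 17 were detected (81%), against 38.3% of all protein-coding genes. The highest were Men1 (172.91 and 235.83 TPM), the menin subunit of MLL complexes, the histone methyltransferase Kmt2b (177.38 and 215.48) and the H3K79 methyltransferase Dot1l (150.57 and 194.96). Kmt2a, the MLL gene itself, read 15.78 and 23.73 TPM. The 4 activators not detected were Cdx1, Cdx2 and Cdx4, with 0 counts each, and Rarb, with 0 and 1. The Cdx genes are homeobox genes that act upstream of Hox genes in early blood formation.

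Of 16 Polycomb genes, which encode the complexes that keep Hox genes repressed, 13 were detected (81.2%). Phc2 (128.27 and 144.81 TPM), Eed (166.91 and 75.75) and Bmi1 (90.16 and 68.93) had the highest mean TPM, while Suz12 (60.66 and 95.96) exceeded both Eed and Bmi1 in library 2. Ezh2, the main H3K27 methyltransferase of blood cells, read 30.12 and 28.17 TPM. Among the chromodomain subunits Cbx7 read 16.17 and 16.22 TPM, whereas Cbx2 and Cbx8 had 0 counts.

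Of 8 blood genes known as HOX and MEIS targets, 2 were detected. Myc read 593.87 and 639.74 TPM and Myb 25.77 and 22.71. Gfi1 was under the threshold at 0.33 and 0.31 TPM. Flt3, Id2 and Mecom had 0 counts, and Cd34 and Sox4 had 0 and 1. The median TPM of these 8 genes was 0.005, against 0.03 over all protein-coding genes and 0.005 over the 46 members.

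Promoter windows of 300 bases around the start site were available from RefSeq (GRCm38.p6) for 27 of the 46 members, 29 windows in all, among them Hoxc4, Meis1, Pbx2 and Pbx4 of the detected genes. The median window of the members held 15 CpG dinucleotides (4 to 45), against 7 over 32851 windows. The windows of Hoxc4 (chr15:103034145-103034444, plus strand), which is that of Hoxc4-201, and of its silent paralog Hoxb4 (chr11:96318017-96318316, plus strand) are shown to set a transcribed and an untranscribed group 4 gene side by side. Capitals mark CpG dinucleotides.
Hoxc4: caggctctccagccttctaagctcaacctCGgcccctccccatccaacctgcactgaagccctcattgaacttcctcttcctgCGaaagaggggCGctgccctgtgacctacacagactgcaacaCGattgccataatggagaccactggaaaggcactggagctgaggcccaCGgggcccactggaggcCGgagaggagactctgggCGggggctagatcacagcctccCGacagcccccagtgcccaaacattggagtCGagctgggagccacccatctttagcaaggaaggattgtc
Hoxb4: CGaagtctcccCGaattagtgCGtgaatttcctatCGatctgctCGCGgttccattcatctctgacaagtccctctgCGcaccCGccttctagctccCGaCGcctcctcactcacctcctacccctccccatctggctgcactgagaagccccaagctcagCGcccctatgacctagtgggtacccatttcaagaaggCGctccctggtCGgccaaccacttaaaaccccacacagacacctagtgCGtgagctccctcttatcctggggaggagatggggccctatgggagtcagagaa

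The Hoxc4 window held 9 CpG and the Hoxb4 window 14. The Hoxc4 window is not at the start of Hoxc4-202, which held 24.9% and 63.0% of the gene's TPM. The median GC content was 58.3% in the member windows and 52.7% in all windows. On both strands, the GATA motif AGATAA occurred in 0 of the 29 member windows, against 11.2% of all windows. TGATAG, another spelling that shares its GATA core, occurred in 3 (10.3%), against 7.29%. The MEIS motif TGACAG occurred in 2 (6.9%, Hoxa2 and Hoxa3), against 19.2%. The PBX-HOX motif TGATTGAT occurred in 2 (6.9%, Hoxa2 and 1 window of Hoxd11), against 0.746%, and another PBX-HOX motif, TGATTTAT, in 0, against 0.977%. None of these motifs lay in the Hoxc4 window, which says only that these letters are not in these 300 bases.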

How the data were processed

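PolyA-selected RNA-seq was read from the gene and transcript tables of 2 libraries. Per the file headers and notes, the authors' values came from transcriptome alignments on mm10 with GENCODE M4. Aligner and counting tool are not given in the sources used here. Deposited expected counts are estimated fragments per gene, not normalized, and were rounded to whole numbers before testing. The authors' TPM and FPKM values are scaled by effective length. Their posterior mean values and TPM intervals (signal bounds) are deposited beside them, and the deposited percent of each gene per transcript was recomputed from transcript TPM.

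Genes were matched by identifier to GENCODE M21 on GRCm38, the same assembly as mm10. Of 43346 gene rows 42462 matched, and the rest held 0.248% and 0.257% of counts. A homeobox was taken as the window, of a length preset by family, around the conserved recognition-helix codons in each annotated coding sequence. Scaling used edgeR 4.0.16 (TMM), with DESeq2 1.42.0 size factors as an alternative, and exact binomial tests used scipy 1.17.1 and were tested on simulated data. With 1 library on each side of that test, no model with residual error could be fitted. Log2 ratios used a prior count of 0.5. Poisson intervals are at 95%, and the limit for a count of 0 is 3 counts.

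Full values were given for members at 1 TPM or more in either library and for those under it down to 0.1 TPM. Others are given by counts, and related lists by the number detected with their most abundant genes. The members and the lists were chosen with earlier results of these data known. Labels number the libraries as biological replicates 1 and 2 of the same sample record. The p-values compare only these libraries with each other and take counting as the only error. No sample was left out. Some genes and 1 sequence are not reported here.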

Additional observations from a re-analysis of the deposited data

How the results depend on the processing

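Of 150 alternative values computed, 128 lay within the tolerance set for them (1.5 times for a count, 1 SD between the libraries for a level or share). That tolerance is wide where the libraries differ: the Hoxa share was 0.181% without library 1 and 0.00780% without library 2, and the Hoxc4-201 share 37.0% and 75.1%. For a share or the level of 1 member, leaving out a library could not fall outside this tolerance. Each of 2 values always lies within 1 SD of their mean. Such alternatives are counted among the 128 but check nothing. The number of members detected ran from 9 to 12 over thresholds of 0.1 to 2 TPM, posterior mean TPM, FPKM and a minimum of 10 counts, against 45.3% of protein-coding genes at 0.1 TPM and 34.8% at 2 TPM. It was 10 without library 1, because Hoxc8 then passed, and 9 without library 2. At 0.1 TPM 2 Hoxb genes were detected in place of 1, the added gene being Hoxb6, and 6 Hoxc genes in place of 4. The Hoxa and Hoxd clusters had 0 detected genes under every alternative run. With posterior mean TPM the Hoxa and Hoxd shares of Hox TPM were 0.724% and 0.312%, through the prior added to genes with 0 counts. The median level of the 10 members at 1 TPM or more in either library was 12.8 TPM and 10.4 FPKM, FPKM being another scale. Without a filter on low counts 1 member was called different between the libraries, Hoxa9 with 0 and 5 counts. Without the fold minimum 9 members were called, against 68.2% of all genes tested. DESeq2 size factors, total counts and posterior mean counts gave 0. Of the 13 members, 9 were higher in library 2 without the fold minimum under TMM and DESeq2 scaling, and 4 under total counts, settings combined after seeing the data. Over all genes tested the shares were 33.5% with TMM, 34.5% with DESeq2 size factors and 21.2% with total counts. The leading transcript's share by expected counts was 84.6% for Hoxc6-201, 68.7% for Meis1-202 and 86.3% for Pbx2-201. By posterior mean TPM it was 99.5% for Hoxc5-201, 97.1% for Hoxc8-201, 98.2% for Hoxc9-201 and 59.6% for Meis1-202. No paired analysis was possible because there is only 1 group. Leaving out a library gives no value for the comparison of the libraries. Leaving out a library for the transcript shares was chosen after seeing the data. At these depths genes under about 0.1 TPM rest on few counts and cannot be ranked.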

Other observations

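Genes with the symbols of other homeobox families were read beside the Hox genes. The symbols also take in a few genes without a homeobox, such as Pou2af1. Of these 77 genes, 15 were detected (19.5%), against 38.3% of all protein-coding genes. Hhex, a homeobox gene of early blood and liver development, was the highest at 620.06 and 1016.64 TPM, above every Hox, Meis and Pbx gene in both libraries. The broadly expressed genes Adnp (46.31 and 63.26 TPM) and Pou2f1 (26.24 and 43.46) followed. Several homeobox genes best known outside blood were also detected. Pax6, a gene of eye and brain development, read 30.67 and 30.42 TPM from 2971 and 2381 counts. Pou4f1, a sensory neuron gene, read 16.78 and 25.89 TPM from 3600 and 3913 counts. Dlx1, a forebrain gene, read 8.74 and 10.80 TPM, and Pax3, a neural crest and muscle gene, 4.98 and 5.15. Like Hoxb13, these genes stood above 1 TPM in both libraries. Over all families pooled, 40 of the 77 genes (51.9%) had 0 counts in both libraries, against 39.5% of all protein-coding genes. The genes named here were singled out after their values were seen.

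A processed pseudogene between Hoxb13 and Hoxb9, Gm11539, had 40.7 and 14.8 expected counts, which are not whole numbers, or 2.00 and 1.02 TPM.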
